A study of Mus musculus with 5 samples.

Results

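The Rab GTPase genes were followed across 4 sorted populations of mouse bone marrow stem and progenitor cells. They were taken by name, as every gene whose symbol is Rab followed by a number and at most 1 letter, with 1 gene of that form not analysed here, which gave 58 of the 27998 genes in the count tables. No expression value entered that naming rule, but the Rab family itself was chosen with earlier results of these data known. The cells came from wild-type C57BL/6 mice and were sorted by flow cytometry, and their RNA was counted with the 10x Genomics 3′ single-cell kit, in which a unique molecular identifier (UMI) marks each captured transcript. Granulocyte/monocyte progenitors (GMP) were lineage-negative, KIT-positive, SCA1-negative and positive for CD34 and CD16/32. Megakaryocyte/erythroid progenitors (MEP) differed from these in lacking both CD34 and CD16/32, and common myeloid progenitors (CMP) carried CD34 without CD16/32. The LSK gate took lineage-negative cells that carried SCA1 as well as KIT, and includes the haematopoietic stem cells.

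Rab proteins are small GTPases that mark the membranes of the cell. In the GTP-bound state each one sits on its own set of compartments and recruits effectors (tethers, motors and sorting proteins) that move, dock or fuse vesicles. Exchange factors load them with GTP and GTPase-activating proteins switch them off, while escort proteins, a prenyl transferase and GDP dissociation inhibitors carry them on and off membranes. In blood cells Rab proteins are known for granule secretion in leukocytes, mast cells and platelets, for phagosome and endosome maturation in myeloid cells, and for the recycling of transferrin receptors that bring iron into erythroid cells.

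Each gate was 1 library, since the 2 CMP samples held identical tables and were counted as 1 sample, so no difference below has a replicate check and no test was made. After filters the libraries held 8027 GMP cells with 73362645 UMIs, 6284 MEP cells with 80273121, 3713 CMP cells with 26919088 and 10870 LSK cells with 75167959. The median cell had 9100, 12578, 6904 and 5991.5 UMIs in the same order. Between 36 and 130 cell barcodes were shared by a pair of libraries, 0.907 to 1.62% of the smaller one. Summed erythroid markers stood at 23.5 counts per 1000000 UMIs (CPM) in GMP and 6560 in MEP, and summed monocyte markers at 2811 CPM in GMP and 7.67 in MEP. Summed megakaryocyte markers did not peak in the gate named for them, at 18.4 CPM in GMP, 146.8 in MEP, 481.5 in CMP and 295.2 in LSK. CPM values are given with 95% intervals that cover counting error only, and a gene was called higher in 1 library where the ratio was at least 2 and the higher library had at least 10 CPM. Because 3′ counting depends on each transcript's end, a level is compared for the same gene across libraries and not between genes, and the share of a gene within a related pair is read only for how it differs between libraries.

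Of the 58 genes, 35 reached 10 CPM in at least 1 library, and 16 of these spanned a ratio of 2 or more between their highest and lowest library. The other 19 stayed within a ratio of 2. The remaining 23 genes were below 10 CPM everywhere, 9 of them below 1 CPM in all 4 libraries, and Rab9b had no UMI in any, which allows up to 0.0409 CPM in GMP, 0.0374 in MEP, 0.111 in CMP and 0.0399 in LSK. The genes nearest the ratio of 2 were Rab40c at 2.07 and Rab22a at 2.20 just above it, and Rab9 at 1.804 and Rab35 at 1.78 just below. Summed over all 58 genes, the level was 1844 CPM in GMP, 1643 in MEP, 1811 in CMP and 2037 in LSK. The summed level therefore varied little, while single members differed by up to 135.5-fold between libraries.

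**Figure D1:**
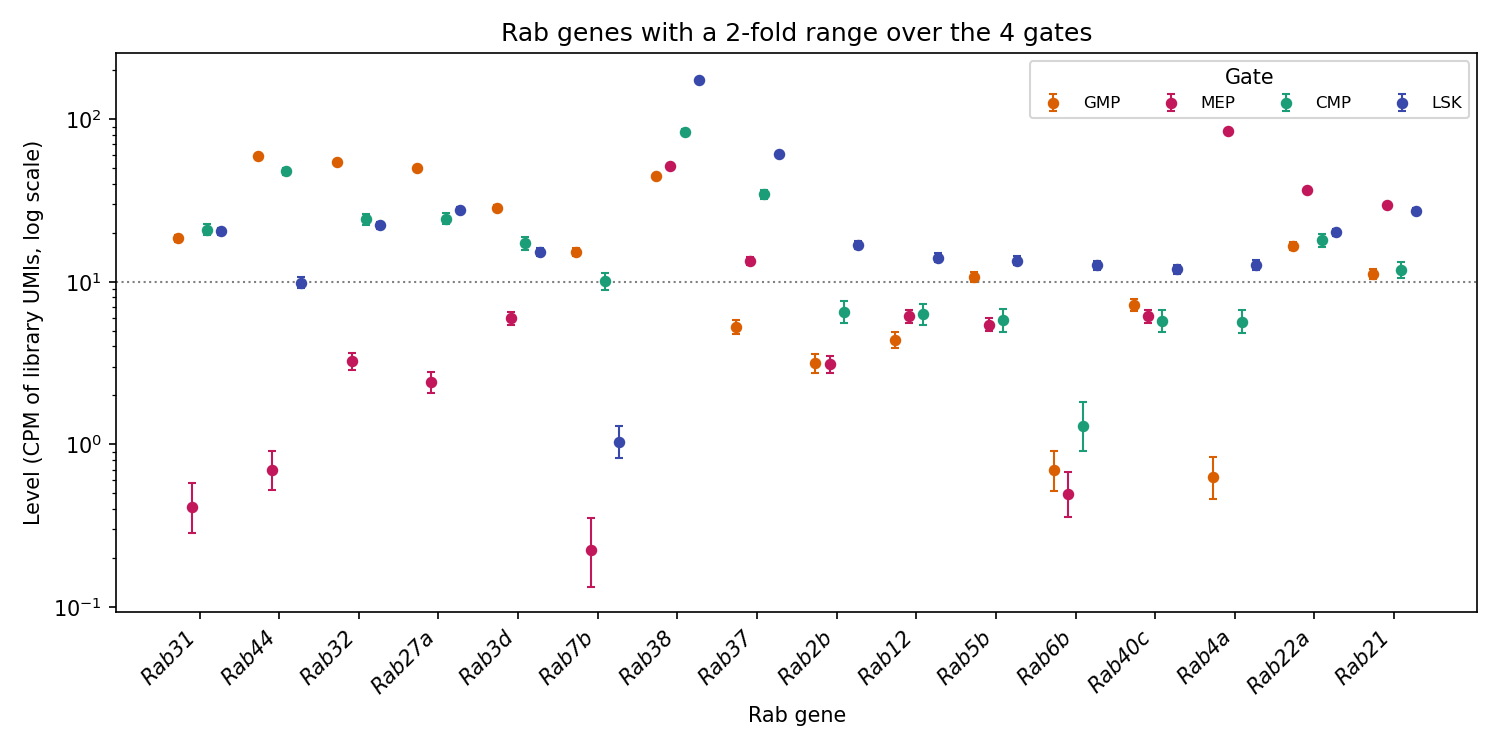
Level of the 16 Rab genes with 10 CPM or more in a library and a ratio of 2 or more between libraries. The log axis gives CPM, each point is 1 library (GMP, MEP, CMP, LSK), bars are 95% Poisson intervals for counting error, and the dotted line marks 10 CPM. Rab4a lies at 85.0 CPM in MEP and 0.627 in GMP, while Rab44, Rab7b, Rab31, Rab27a and Rab32 all have their lowest point in MEP.

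Neighbouring libraries that did not differ beyond counting error were CMP and LSK for Rab31 and Rab32, GMP and CMP for Rab21 and Rab22a, GMP and MEP for Rab2b and Rab6b, and MEP and CMP for Rab5b, Rab12 and Rab40c. No such tie occurred for Rab3d, Rab4a, Rab7b, Rab27a, Rab37, Rab38 or Rab44.

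Promoter windows are shown first for members whose levels set GMP and MEP apart, so that the regulatory sequence stands beside the values that follow. RefSeq (GRCm38.p6) gave a window of 250 bases before and 50 after the annotated start for 48 of the 58 genes, and for 11 of the 16 with large ratios. Rab4a, Rab7b, Rab37, Rab38 and Rab44 had none in that table. Rab27a had 2 windows there, and only the first listed is shown and described. Both strands were searched for GATAA (bound by GATA factors), GAGGAA (the core of PU.1 sites), TTGCNNAA (a C/EBP form) and CACCC (bound by KLF factors), and matches are in capitals, reading as the reverse complement where the match is on the other strand. These letters occur in 25.4, 28.3, 10.8 and 57.5% of the 32851 promoter windows in the table. All windows read 5′ to 3′ on the gene's own strand. The first 4 belong to genes lower in MEP than in GMP (Rab27a chr9:73044560-73044859, plus strand; Rab32 chr10:10558158-10558457, minus; Rab31 chr17:65772703-65773002, minus; Rab3d chr9:21918134-21918433, minus). The last 2 belong to genes higher in MEP (Rab22a chr2:173659595-173659894, plus; Rab21 chr10:115315542-115315841, minus).
Rab27a: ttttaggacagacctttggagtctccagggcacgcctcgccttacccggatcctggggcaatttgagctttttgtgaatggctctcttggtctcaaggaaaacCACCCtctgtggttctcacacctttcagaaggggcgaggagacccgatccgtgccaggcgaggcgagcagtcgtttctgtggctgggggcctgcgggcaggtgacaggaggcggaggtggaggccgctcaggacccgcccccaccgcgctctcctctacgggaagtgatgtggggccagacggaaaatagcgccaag
Rab32: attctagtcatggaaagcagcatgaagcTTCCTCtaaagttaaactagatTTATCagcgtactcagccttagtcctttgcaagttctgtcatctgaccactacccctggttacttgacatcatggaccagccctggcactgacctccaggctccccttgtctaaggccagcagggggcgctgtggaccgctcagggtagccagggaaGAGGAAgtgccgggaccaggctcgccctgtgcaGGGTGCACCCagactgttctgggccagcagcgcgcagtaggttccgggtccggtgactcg
Rab31: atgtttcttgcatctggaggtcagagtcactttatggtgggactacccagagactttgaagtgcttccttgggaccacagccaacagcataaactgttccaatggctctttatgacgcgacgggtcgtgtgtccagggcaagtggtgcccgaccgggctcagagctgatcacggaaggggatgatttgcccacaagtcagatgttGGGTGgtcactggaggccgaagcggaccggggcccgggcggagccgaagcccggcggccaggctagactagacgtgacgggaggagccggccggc
Rab3d: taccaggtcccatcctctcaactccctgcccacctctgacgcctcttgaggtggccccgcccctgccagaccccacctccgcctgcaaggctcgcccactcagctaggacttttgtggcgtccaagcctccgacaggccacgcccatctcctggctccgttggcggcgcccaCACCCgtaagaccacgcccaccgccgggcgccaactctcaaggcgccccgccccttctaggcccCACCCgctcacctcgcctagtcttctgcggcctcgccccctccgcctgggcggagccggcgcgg
Rab22a: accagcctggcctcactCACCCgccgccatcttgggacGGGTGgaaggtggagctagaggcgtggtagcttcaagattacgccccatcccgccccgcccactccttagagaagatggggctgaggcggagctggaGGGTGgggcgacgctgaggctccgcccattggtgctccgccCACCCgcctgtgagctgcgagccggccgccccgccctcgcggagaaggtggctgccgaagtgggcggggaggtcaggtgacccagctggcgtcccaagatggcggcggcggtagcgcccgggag
Rab21: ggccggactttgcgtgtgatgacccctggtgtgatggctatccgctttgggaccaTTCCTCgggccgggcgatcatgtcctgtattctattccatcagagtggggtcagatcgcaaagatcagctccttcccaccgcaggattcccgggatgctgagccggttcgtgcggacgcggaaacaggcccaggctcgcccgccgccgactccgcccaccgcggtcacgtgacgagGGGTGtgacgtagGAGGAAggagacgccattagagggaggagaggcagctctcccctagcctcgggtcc
In these windows GATAA occurred once, in Rab32, and GAGGAA occurred 2 times in Rab32 and 2 times in Rab21. TTGCNNAA was found in none of the 6. CACCC occurred in all of them, 4 times in Rab22a, 2 times in Rab32 and in Rab3d, and 1 time in each of the others. No matches overlapped. A match is a string of letters, and its occupancy was not measured.

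Of the 4 secretory Rab genes at 10 CPM or more, 3 were lower in MEP than in GMP and 1 was higher. Rab27a, which docks secretory granules and lysosome-related organelles at the plasma membrane of leukocytes and melanocytes, had 49.9 CPM in GMP, 2.40 (2.08 to 2.77) in MEP, 24.4 in CMP and 27.5 in LSK. Its level was highest in GMP, LSK lay slightly above CMP, and MEP stood far below the rest. Rab44, a large Rab protein with EF-hands that takes part in mast cell degranulation in the mouse, had 59.4 CPM in GMP, 0.698 (0.527 to 0.906) in MEP, 47.7 in CMP and 9.89 (9.19 to 10.6) in LSK. GMP and CMP were thus the high libraries for Rab44, LSK lay between, and MEP had 56 UMIs in all. Rab3d, a granule Rab of exocrine and mast cells, had 28.5 CPM in GMP, 5.94 in MEP, 17.3 in CMP and 15.3 in LSK.

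Rab37, found on secretory granules of mast cells, followed the reverse course between these gates. Its level was 5.30 CPM in GMP, 13.5 in MEP, 34.4 in CMP and 60.8 in LSK, so that each of the 4 libraries differed from the next by more than counting error. The 8 genes of the secretory group, of which 4 reached 10 CPM, together held 8.0% of all Rab UMIs in GMP, 1.7% in MEP, 7.0% in CMP and 5.9% in LSK. Rab27a lies on chr9:73044854-73097629 and Rab44 on chr17:29114145-29148980, both on the plus strand in the GRCm38 annotation (GENCODE M21), as do Rab37 on chr11:115091431-115162236 and, on the minus strand, Rab3d on chr9:21907491-21918192. Rab37 overlaps Cd300lf and Rab44 overlaps Rpl35a-ps3 on the opposite strand, and Rab27a overlaps Gm27186 on its own strand. The use of strand in the counting is not given in the sources used here, so reads of such overlapping genes cannot be told apart.

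Rab32 and Rab38, close relatives that act in the biogenesis of melanosomes and other lysosome-related organelles, moved in different directions. Rab32 (chr10:10545002-10558265, minus strand) had 54.7 CPM in GMP, 3.24 in MEP, 24.3 in CMP and 22.2 in LSK. Rab38 (chr7:88430273-88491572, plus strand), the gene altered in the chocolate coat-colour mouse, had 44.6 CPM in GMP, 51.6 in MEP, 82.9 in CMP and 175.0 in LSK. Rab32 was therefore highest in GMP and Rab38 in LSK. Of the UMIs of the pair, Rab32 made up 55.1% (53.9 to 56.2) in GMP, 5.91% (5.23 to 6.65) in MEP, 22.6% in CMP and 11.3% in LSK.

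Among endosomal members, Rab4a had the widest range of any Rab gene. Rab4a, which returns cargo such as the transferrin receptor from early endosomes to the cell surface, stood at 0.627 CPM (0.459 to 0.836) in GMP, 85.0 (83.0 to 87.0) in MEP, 5.68 in CMP and 12.7 in LSK. These levels rest on 46 UMIs in GMP, 6820 in MEP, 153 in CMP and 953 in LSK. MEP was thus the single high library, and GMP the lowest of all. The close relative Rab4b stayed between 1.02 and 2.47 CPM, so the share of Rab4a among UMIs of the pair was 28.0% (21.3 to 35.6) in GMP, 98.8% (98.5 to 99.1) in MEP, 76.5% in CMP and 83.7% in LSK. Rab4a (chr8:123805985-123835287, plus strand) overlaps Gm20388 on the same strand.

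Rab31, which carries cargo between the trans-Golgi network and endosomes, had 18.5 CPM in GMP, 0.411 (0.283 to 0.577) in MEP, 20.95 in CMP and 20.4 in LSK. GMP, CMP and LSK were close to each other, and only MEP stood apart, with 33 UMIs. Rab22a, its nearest relative on early endosomes, ran the other way, with 16.6 CPM in GMP, 36.5 in MEP, 18.02 in CMP and 20.2 in LSK. Rab31 therefore supplied 52.7% of the UMIs of the pair in GMP, 1.11% (0.767 to 1.56) in MEP, 53.8% in CMP and 50.2% in LSK. Rab21, an early endosomal Rab known for the traffic of integrins, had 11.2 CPM in GMP, 29.5 in MEP, 11.8 in CMP and 27.4 in LSK, with MEP and LSK high. Rab31 (chr17:65651729-65772752, minus strand) overlaps AC166058.1 on its own strand.

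Of the 3 Rab5 genes, which drive the fusion of early endosomes, only Rab5b passed a ratio of 2, with 10.7 CPM in GMP, 5.46 in MEP, 5.80 in CMP and 13.5 in LSK. Rab5c was among the most even members, with 107 CPM in GMP, 123 in MEP, 124 in CMP and 108 in LSK. Rab12, which directs transferrin receptors from recycling endosomes to lysosomes, had 4.38 CPM in GMP, 6.12 in MEP, 6.32 in CMP and 14.1 in LSK. LSK was the highest library for both Rab5b and Rab12.

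In the late endosome group, Rab7b reached 10 CPM in GMP and CMP and stayed near or under 1 CPM in MEP and LSK. Rab7b, known in myeloid cells for late endosome traffic of Toll-like receptors, had 15.3 CPM in GMP, 0.224 (0.133 to 0.354) in MEP, 10.1 in CMP and 1.04 in LSK, from 1119, 18, 272 and 78 UMIs. Rab7, the general late endosome and lysosome Rab, had the smallest range of the 35 detected genes, with 117 CPM in GMP, 109 in MEP, 121.5 in CMP and 107 in LSK. Rab7b made up 11.5% (10.9 to 12.2) of the UMIs of the pair in GMP, 0.205% (0.122 to 0.324) in MEP, 7.68% in CMP and 0.963% in LSK. Rab7b lies on chr1:131688695-131715439, plus strand. Rab9, which acts in return from late endosomes to the trans-Golgi network, had 67.4 CPM in GMP, 37.4 in MEP, 55.05 in CMP and 45.01 in LSK, the widest range among the 19 even genes.

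Among genes of the endoplasmic reticulum and Golgi, Rab6b and Rab2b were highest in LSK. Rab6b, the relative of the Golgi Rab6a best known from brain, had 0.695 CPM in GMP, 0.498 in MEP, 1.30 in CMP and 12.7 in LSK, from 51, 40, 35 and 951 UMIs. The other 3 libraries were at 1.30 CPM or less, and LSK was the single library above 10. Its share of Rab6 UMIs was 1.57% (1.17 to 2.05) in GMP, 1.18% in MEP, 3.32% in CMP and 20.7% (19.6 to 21.9) in LSK. Rab2b, a relative of the ER-to-Golgi regulator Rab2a, had 3.15 CPM in GMP, 3.10 in MEP, 6.54 in CMP and 16.7 in LSK. Rab2a itself was even, with 277 CPM in GMP, 179 in MEP, 226 in CMP and 201.5 in LSK. Rab40c, a Rab with a SOCS box, was also highest in LSK, with 7.24 CPM in GMP, 6.13 in MEP, 5.76 in CMP and 11.9 in LSK. Rab6b (chr9:103111787-103185276, plus strand) overlaps Gm37166 on its own strand, and Rab2b overlaps Tox4 on the opposite strand.

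**Figure D2:**
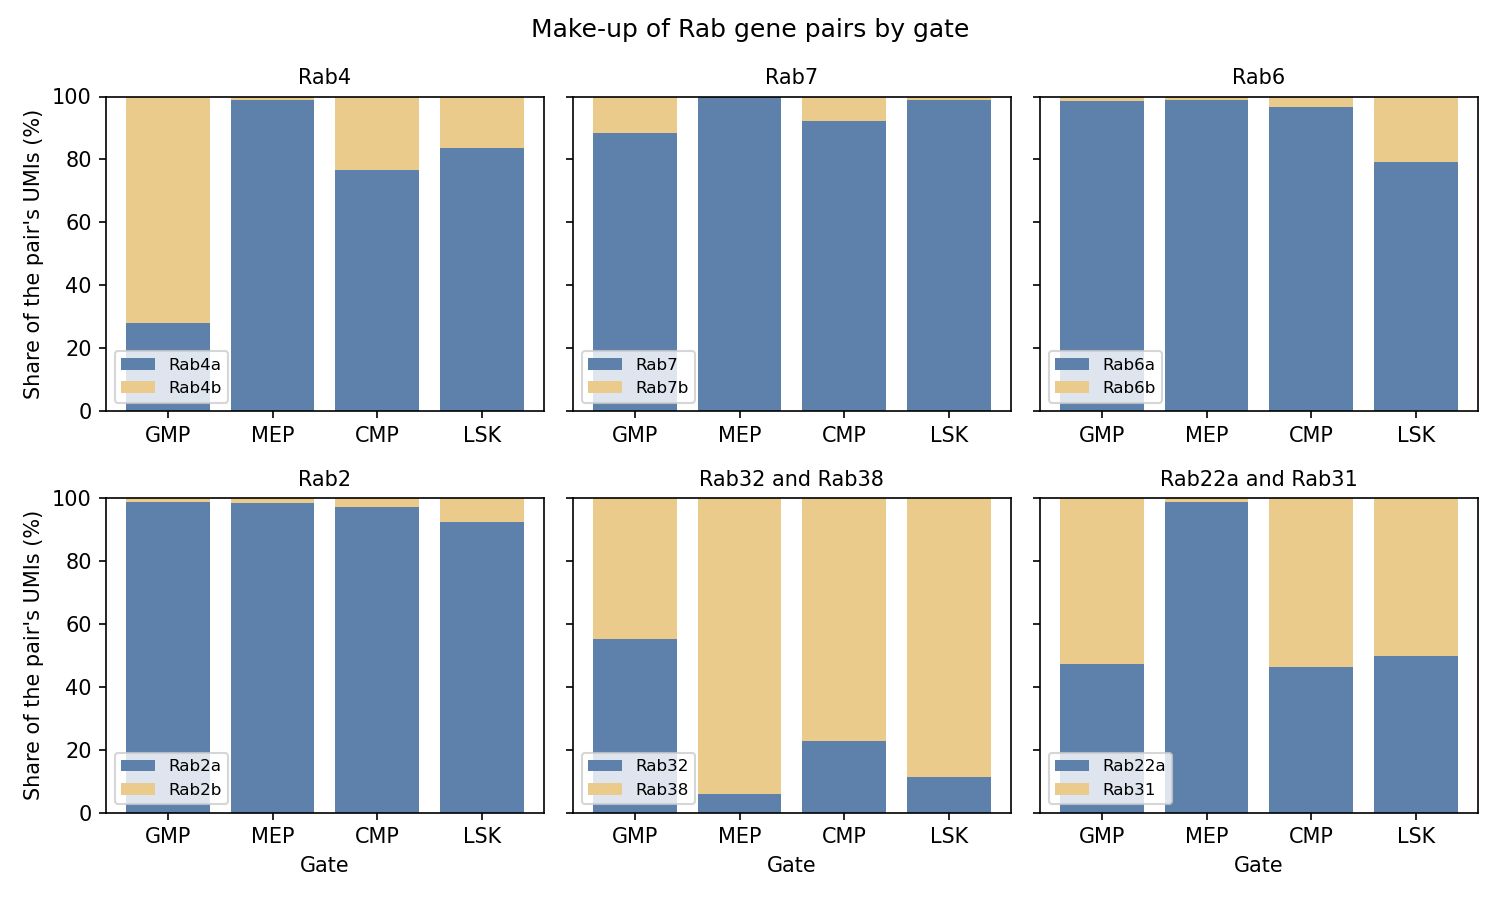
Make-up of 6 pairs of related Rab genes in each library (GMP, MEP, CMP, LSK) as the percent of the pair's UMIs, with 1 stacked bar per library, 1 colour per gene and no error bars. Rab4a takes 98.8% of Rab4 UMIs in MEP and 28.0% in GMP, and Rab31 takes 1.11% of the Rab22a and Rab31 UMIs in MEP against 50.2 to 53.8% in the other 3 libraries.

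Besides Rab2a, Rab5c, Rab7 and Rab9, the 19 even genes held Rab1a and Rab1b (ER to Golgi), Rab5a (early endosome) and Rab6a (Golgi). They also held Rab8a and Rab8b (exocytosis to the plasma membrane), Rab10 (plasma membrane traffic), and Rab11a and Rab11b (slow recycling). The last were Rab14 (Golgi to endosome), Rab18 (lipid droplets), Rab24 (autophagy), Rab29 (late endosome and lysosome), Rab35 (endocytic recycling) and Rab28. Rab11b, for example, had 86.4 CPM in GMP, 89.7 in MEP, 115 in CMP and 130.5 in LSK. Rab35 had 24.9 CPM in GMP, 44.2 in MEP, 32.6 in CMP and 41.0 in LSK. Rab1a supplied 73.1% of Rab1 UMIs in GMP, 70.6% in MEP, 71.1% in CMP and 71.0% in LSK.

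Of the 22 genes under 10 CPM with any UMI, 16 (72.7%) had their highest level in LSK, against 58.8% of all 10370 such genes, and some rest on a few UMIs or lie within counting error of another library. Rab17 came nearest the limit, with 1.77 CPM in GMP, 0.324 in MEP, 2.97 in CMP and 9.34 in LSK.

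The contrast of GMP with MEP compares the progenitors of the granulocyte/monocyte and the megakaryocyte/erythroid branches. Of 31 Rab genes with 10 CPM in either library, 10 were called, against 26.6% of the 7170 genes at that level, so the share of 32.3% lay near the background. Higher in GMP were 6, against 13.8% of all genes in that direction, and higher in MEP were 4, against 12.8%. The log2 ratios were 6.41 (6.03 to 6.82) for Rab44, 6.09 (5.42 to 6.85) for Rab7b, 5.49 for Rab31, 4.38 for Rab27a, 4.08 for Rab32 and 2.26 for Rab3d. On the other side they were -7.08 (-7.53 to -6.66) for Rab4a, -1.39 for Rab21, -1.34 for Rab37 and -1.14 for Rab22a. Those called higher in GMP included 3 of the 4 secretory genes that reached 10 CPM, and also the endosomal genes Rab31 and Rab7b. Those higher in MEP were endosomal or recycling genes apart from Rab37. Of the 35 Rab genes at 10 CPM in any library, 6 were in the early endosome group. The late endosome group held 5 of them and the recycling group 9. The called genes were not tested against that make-up. The median log2 ratio of the 44 Rab genes with a mean of 1 CPM or more was 0.14, against -0.12 over all genes.

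**Figure D3:**
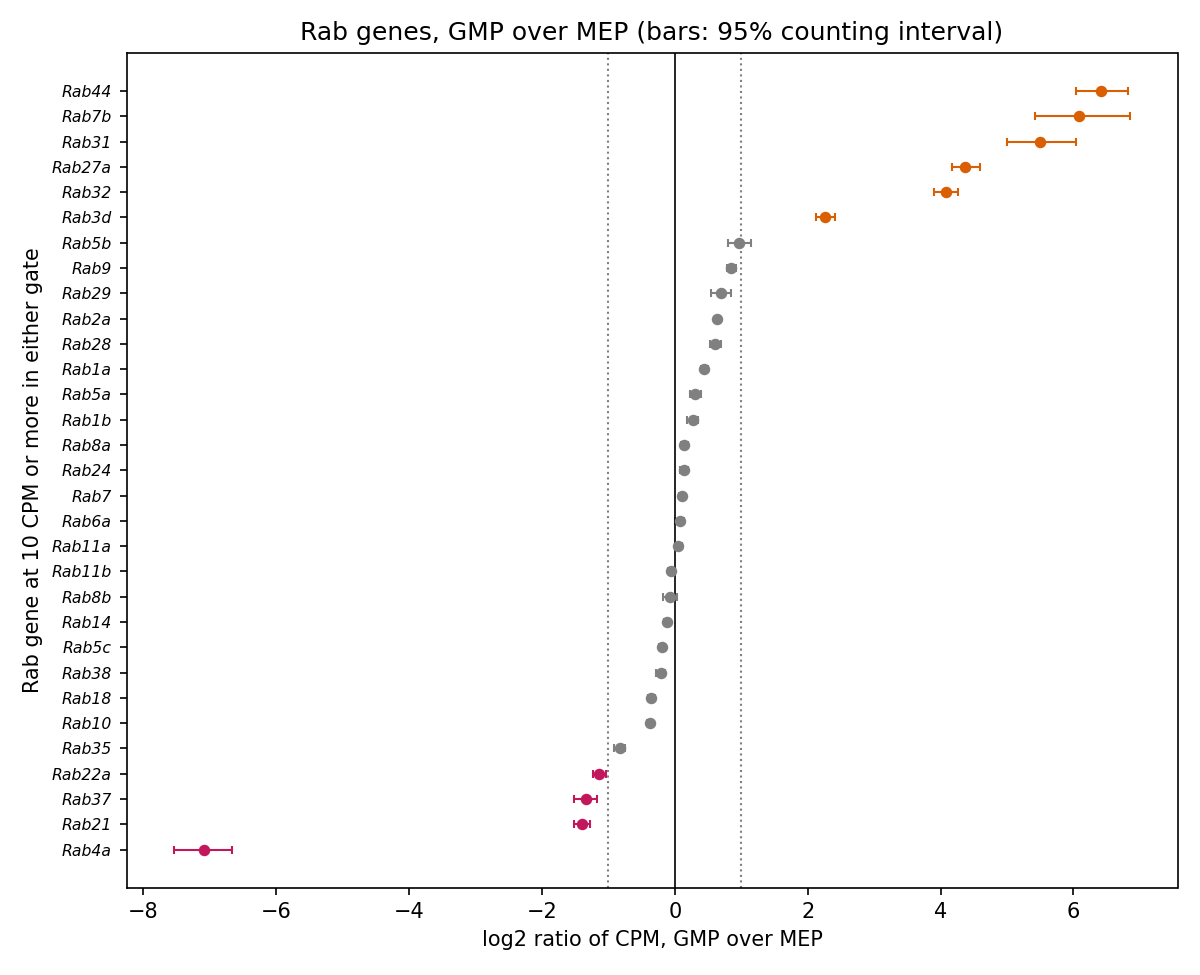
Log2 ratio of GMP over MEP (horizontal axis) for the 31 Rab genes with 10 CPM or more in either library, 1 row per gene; bars are 95% intervals for counting error, the solid line marks equal levels, dotted lines a ratio of 2, and colours the genes called higher in GMP (orange) or MEP (magenta). Rab44, Rab7b, Rab31, Rab27a and Rab32 lie at 4.08 to 6.41 and Rab4a at -7.08, while 21 genes lie between the dotted lines.

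Set against CMP, GMP had 3 called Rab genes of 30, where 8.31% of all genes were called. Rab32 and Rab27a were higher in GMP, the direction of 2.99% of all genes, at log2 ratios of 1.17 (1.05 to 1.29) for Rab32 and 1.03 (0.91 to 1.15) for Rab27a. Rab37 was lower at -2.70 (-2.87 to -2.53), the direction of 5.32%. The interval of Rab27a reaches below 2-fold. MEP against CMP had 10 called of 29, where 25.5% of all genes were called. Rab4a (3.90), Rab21 (1.32) and Rab22a (1.02) were higher in MEP on the log2 scale, against 10.9% of all genes. The other 7 were lower in MEP, against 14.6% of all genes, with log2 ratios of -6.10 for Rab44, -5.67 for Rab31, -5.49 for Rab7b, -3.35 for Rab27a, -2.90 for Rab32, -1.54 for Rab3d and -1.36 for Rab37. Without the cells of clusters 15 to 18 (15 and 16 are described below, 17 was led by the dendritic gene Batf3 and 18 by the neutrophil genes Camp and Ngp), MEP over CMP had 8 calls, since Rab37 and Rab7b were no longer past the rule, and GMP over CMP had 3, with Rab7b in place of Rab27a. Of all genes, 26.5% were then called in MEP over CMP and 7.11% in GMP over CMP. Both contrasts share the CMP library.

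The contrasts with LSK compare each committed gate with the one that includes the stem cells, and all 3 share the LSK library. CMP over LSK had 10 called Rab genes of 35, where 14.4% of all genes were called. Rab7b (3.28) and Rab44 (2.27) were higher in CMP on the log2 scale, against 2.05% of all genes, and 8 were lower, against 12.3%, Rab6b the most at -3.28 (-3.81 to -2.80) and the others between -1.36 for Rab2b and -1.05 for Rab40c. Without the cells of clusters 15 to 18 it had 9, where 16.4% of all genes were called. Rab37 was added, and Rab7b and Rab40c were no longer past the rule. GMP over LSK also had 10 called of 35, where 26.1% of all genes were called, with Rab7b (3.88), Rab44 (2.59) and Rab32 (1.30) higher in GMP, against 5.13% of all genes, and 7 lower, against 21.0%. These 7 were Rab4a (-4.34), Rab6b (-4.19), Rab37 (-3.52), Rab2b (-2.41), Rab38 (-1.97), Rab12 (-1.68) and Rab21 (-1.29). MEP over LSK had 11 called of 33, where 34.1% of all genes were called, and Rab4a at 2.74 (2.65 to 2.84) was the 1 gene higher in MEP, against 9.16% of all genes. Rab31 (-5.63), Rab6b (-4.67), Rab27a (-3.51), Rab32 (-2.78), Rab2b (-2.43), Rab37 (-2.18), Rab38 (-1.76), Rab3d (-1.36), Rab5b (-1.30) and Rab12 (-1.20) were lower in MEP, against 24.9% of all genes.

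These calls against LSK depend on the scaling. Median-of-ratios size factors moved log2 ratios up by 0.38 in CMP over LSK, 0.54 in GMP over LSK and 0.52 in MEP over LSK. Over all called genes the share higher in CMP was 14.2% with library totals and 52.6% with those factors; for GMP it was 19.6 and 62.2%, and for MEP 26.9 and 61.7%. With median-of-ratios factors, CMP over LSK kept Rab7b and Rab44 alone of its 10 calls, where 11.2% of all genes were called. Of the 8 lost, 7 fell under a ratio of 2, with log2 ratios of -0.98 to -0.67, whereas Rab6b stayed at -2.91 and was lost because its scaled level no longer reached 10 CPM. Rab6b and Rab4a in GMP over LSK and Rab6b in MEP over LSK were lost in the same way, at -3.65, -3.80 and -4.15. In GMP over LSK those factors gave 6 higher and 4 lower, where 26.1% of all genes were called. In MEP over LSK they gave 2 higher and 6 lower, where 40.5% of all genes were called. Library totals gave a median log2 ratio below 0 for the Rab genes against LSK, as for all genes, at -0.35 and -0.33 in CMP over LSK, -0.43 and -0.44 in GMP over LSK, and -0.64 and -0.36 in MEP over LSK. With each shift added, the Rab medians came to 0.03 in CMP over LSK, 0.11 in GMP over LSK and -0.12 in MEP over LSK.

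The share of cells with at least 1 UMI was read after each cell was thinned to 2000 UMIs, which left out 36 CMP cells. For Rab4a, Rab44 and Rab38 the thinned share followed the order of CPM. Rab2b and Rab6b, whose GMP and MEP levels were tied, changed order. Rab2b was detected in 0.461% of GMP and 0.700% of MEP cells, and Rab6b in 0.162% and 0.191%. Rab4a was detected in 0.137% of GMP, 15.95% of MEP, 1.47% of CMP and 2.56% of LSK cells, against unthinned shares of 0.573, 59.5, 3.66 and 8.11%. For Rab44 the thinned shares were 11.3% of GMP, 0.430% of MEP, 9.11% of CMP and 1.70% of LSK cells, and the unthinned shares 39.75, 0.859, 27.3 and 6.08%. Rab38 was found in 8.92% of GMP, 10.6% of MEP, 16.3% of CMP and 30.5% of LSK cells, and unthinned in 29.2, 45.3, 40.3 and 64.8%. Of the 16 genes with large ratios, 15 had their highest thinned share in the library with their highest CPM.

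Clusters showed where inside each gate these genes were found. Cells were grouped into 18 clusters without the Rab genes, after removal of 6.42% of GMP, 5.03% of MEP, 2.96% of CMP and 8.69% of LSK cells as likely doublets, and 18 combinations of library and cluster held 100 or more cells. Clusters 3 and 5 of GMP were monocyte-like, clusters 2, 8 and 9 of MEP erythroid-like, clusters 1 and 6 of LSK HSC/multipotent-like and cluster 4 of LSK lymphoid-primed-like, by their marker lists. Cluster 16 was megakaryocyte-like in both gates that gave it 100 or more cells, with Pf4 at 5541 CPM in 178 MEP cells and 9423 CPM in 120 CMP cells. Cluster 15 stays unnamed, since its cells differed between gates. Its 211 GMP cells carried the basophil genes Prss34 at 4004 CPM and Mcpt8 at 3954 CPM. Its 606 CMP cells had Prss34 at 2.1 CPM and the erythroid gene Car1 at 364 CPM. Summed basophil/mast markers in these CMP cells still stood at 3088 CPM, against 1235 to 1468 in CMP clusters 7, 14 and 16. Their summed erythroid markers, at 668 CPM, were also the highest of these CMP clusters. Clusters 10 (led by Wfdc21 and Cebpe) and 13 (led by Prg2 and Prg3) of GMP, 7 and 14 of CMP and 11 and 12 of LSK also stay unnamed. Of 39 Rab genes that reached 10 CPM in such a combination, 13 had a ratio of 2 or more over the other cells of the same library, against 33.3% of all 9265 genes at that level, which is the same share.

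Several Rab genes were past the rule in the 178 megakaryocyte-like MEP cells. The share of all genes past it in these cells alone was not computed. Rab13 had 14.8 CPM (8.07 to 24.8, from 14 UMIs) against 1.23 in other MEP cells. Rab27a had 23.2 (14.5 to 35.1) against 2.16, Rab32 had 30.6 (20.5 to 43.9) against 2.86 and Rab37 had 100.1 (81 to 122) against 12.3. Rab27a and Rab32 are thus genes low in MEP as a whole but not in these cells. Rab38, at 153 against 49.8 CPM, and Rab11a, at 168 against 67.6 CPM, were also higher there. Rab2b (10 UMIs), Rab3d (14 UMIs), Rab5b (11 UMIs) and Rab12 (15 UMIs) passed the rule too, but their ratio intervals reach below 2-fold. Rab4a stood lower in them, at 17.9 CPM (10.4 to 28.7) against 85.3. Rab44 had no UMI in these cells, where 3 UMIs would be 3.16 CPM, and Rab31 had 4 UMIs. In the 120 megakaryocyte-like CMP cells, Rab13 had 20.4 CPM against 1.94, Rab37 had 101 against 32.2, Rab11a had 161 against 73.8 and Rab12 had 14.7 against 6.03. Rab13 there rests on 18 UMIs and Rab12 on 13, and the ratio intervals of Rab11a and Rab12 reach below 2-fold. Rab13, which acts in junction and surface traffic in epithelia, reached 10 CPM in these 2 sets of cells and in no gate as a whole.

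Within the erythroid-like MEP clusters Rab4a varied little and Rab37 varied much. Rab4a had 92.9 CPM in cluster 2, 72.0 in the globin-led cluster 8 and 99.2 in cluster 9. Rab37 had 11.2 CPM in cluster 2, 0.615 in cluster 8 and 41.7 (38.2 to 45.5) in cluster 9, which was led by Csrp3, Trib2 and Optn. Rab38 likewise had 55.6 CPM in cluster 2, 30.6 in cluster 8 and 77.9 in cluster 9. Of the 56 Rab44 UMIs in MEP, 42 fell in cluster 9.

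Among GMP cells, the 211 cells of cluster 15 with basophil genes carried Rab19 at 15.4 CPM (8.98 to 24.7; 17 UMIs) against 0.107 in other GMP cells. They also had Rab37 at 80.7 CPM (64.8 to 99.3) against 4.19 and Rab38 at 109 against 43.7. Rab44 stood at 112.5 CPM (93.5 to 134) in them, against 58.3 in other GMP cells, a ratio of 1.93. Rab7b had no UMI in these cells, where 3 UMIs would be 2.72 CPM. The monocyte-like clusters 3 and 5 had Rab38 at 19.6 and 25.9 CPM and Rab37 at 0.865 and 1.46 CPM. The Cebpe-led cluster 10 and the Prg2-led cluster 13 had Rab38 at 68.0 and 82.0 CPM, and Rab7b at 22.1 and 20.2 CPM against 10.8 and 12.5 in the monocyte-like clusters. Rab27a, Rab31 and Rab32 were nearly level across these 4 clusters, at 46.7 to 56.4, 17.95 to 19.2 and 49.98 to 61.0 CPM.

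In CMP, cluster 15 held Rab37 at 113 CPM (99.7 to 127) against 26.6 in other CMP cells, Rab4a at 24.9 (19 to 32.2) against 3.83, and Rab2b at 13.1 against 5.86. Cluster 15 was also the CMP cluster with the highest Car1, at 364 CPM against 102 in cluster 14, where Rab4a stood at 4.19 CPM. The summed basophil/mast markers were highest in cluster 15 of CMP too. In LSK, Rab20, a Rab of phagosome maturation, had 11.8 CPM (9.73 to 14.1) in HSC/multipotent-like cluster 6 against 4.95 in the other LSK cells. Rab38 ranged from 119.5 CPM in the lymphoid-primed-like cluster to 240 in cluster 6, and Rab37 from 50.5 to 74.4. Rab6b stood at 17.0, 18.7 and 18.2 CPM in clusters 1, 4 and 6, and at 8.02 and 7.02 CPM in clusters 11 and 12. These cluster values come from cells of 1 library per gate and have no replicate check.

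**Figure D4:**
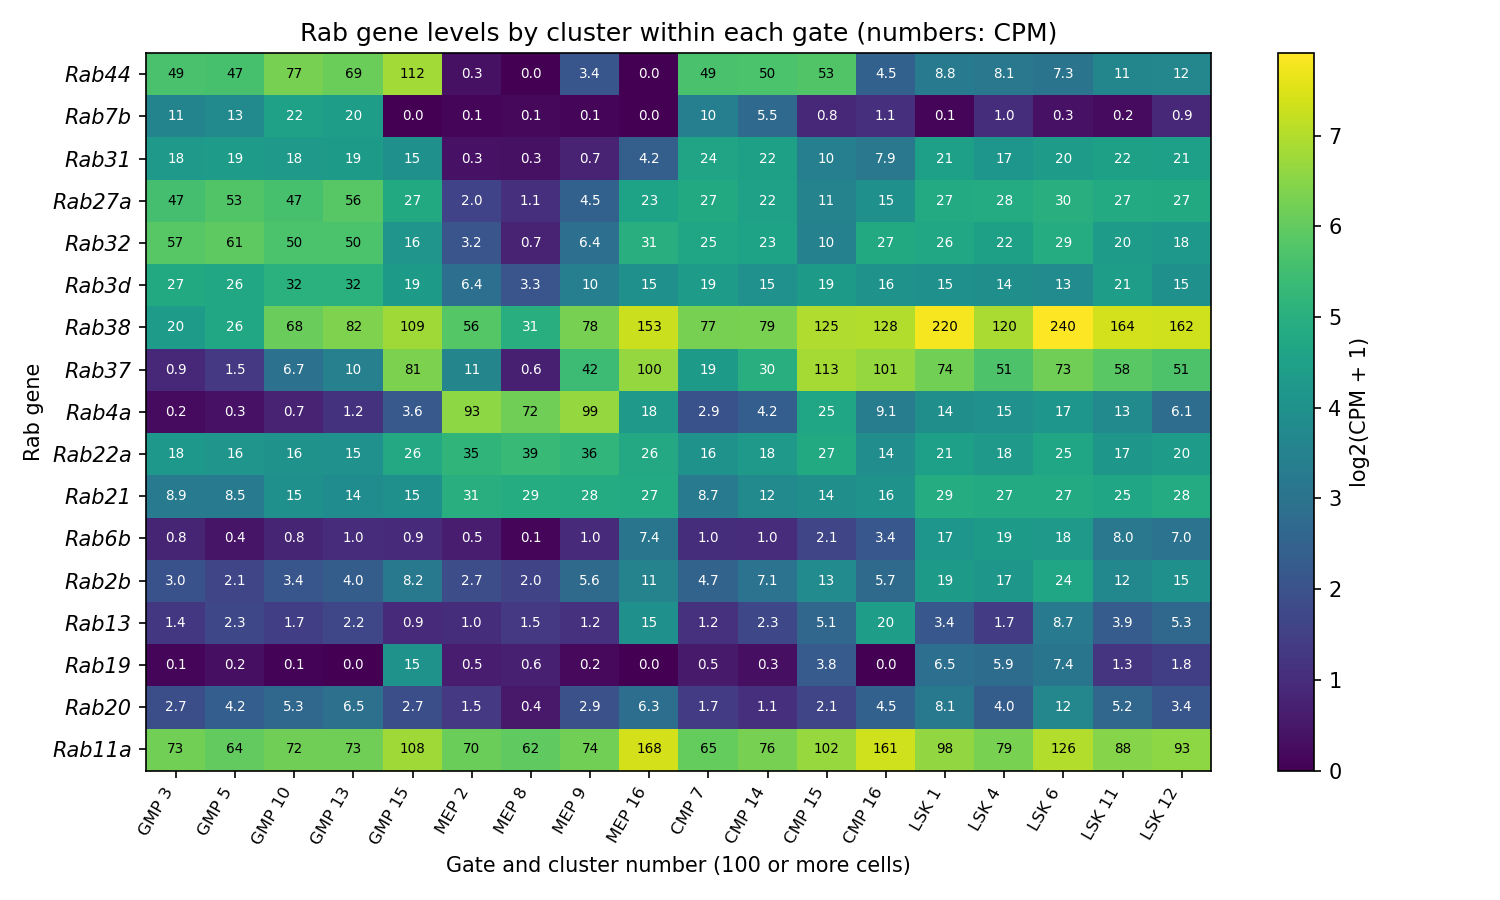
Level of 17 Rab genes (rows) in each library and cluster with 100 or more cells (columns, in the order GMP, MEP, CMP, LSK); colour gives log2(CPM + 1) and the printed numbers are CPM. The megakaryocyte-like MEP cells (MEP 16) have Rab27a at 23.2 and Rab32 at 30.6 CPM, unlike the erythroid-like MEP columns, and within GMP, MEP and CMP Rab37 is highest in cluster 15 or 16.

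Genes that act on Rab proteins were read in GMP and MEP from 6 lists, which were chosen with earlier results of these data known. Of the 6 tested genes for escort, prenylation and GDP dissociation, 1 was called: Rabggtb, a subunit of the Rab prenyl transferase, at 39.1 CPM in GMP and 89.7 in MEP. Gdi2 and Rabac1, highest of the list in CPM, had 204.5 and 194 CPM in GMP and 151 and 185 CPM in MEP. Of 12 exchange factors, Rin3, which acts on Rab5 proteins and Rab31, had 50.9 CPM in GMP and 2.50 in MEP, and Rabgef1, another Rab5 exchange factor, had 6.49 in GMP and 17.9 in MEP. Ccz1, part of the Rab7 exchange factor, and Gapvd1, which acts on Rab5, were highest in CPM, with 75.5 and 35.3 CPM in GMP and 58.0 and 65.9 CPM in MEP. Rin3 also stood at 35.6 CPM in CMP and 32.5 in LSK. Of 11 GTPase-activating proteins, Tbc1d10c was called, with 24.5 CPM in GMP and 4.53 in MEP (43.5 in CMP and 103 in LSK), and Rabgap1l, highest in CPM, had 62.1 CPM in GMP and 40.6 in MEP.

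Effectors were called in both directions. In the endosome and recycling list 4 of 11 were called: Mical1 (10.8 CPM in GMP, 0.137 in MEP) and Appl1, a Rab5 effector (30.3 CPM in GMP, 8.96 in MEP), were higher in GMP. Optn, which binds Rab8 (1.01 CPM in GMP, 47.5 in MEP), and Rabep1, which binds Rab5 and Rab4 (23.5 CPM in GMP, 49.2 in MEP), were higher in MEP. In the late endosome list 2 of 7 were called: Plin3, a Rab9 effector, had 47.6 CPM in GMP and 5.46 in MEP, and Osbpl1a, a Rab7 effector, had 6.61 in GMP and 22.2 in MEP. Vps35 of the retromer had 68.7 CPM in GMP and 82.9 in MEP. In the secretion and Golgi list 3 of 12 were called. Myo5a, a granule motor, had 18.4 CPM in GMP and 2.88 in MEP. Unc13d, the Rab27a effector that primes granules for fusion, had 12.8 CPM in GMP and 37.5 in MEP, the reverse order to Rab27a. The genes of the list highest in CPM, Gorasp2 and Stxbp2, had 86.3 and 61.0 CPM in GMP and 48.2 and 40.7 CPM in MEP. Over the 6 lists, 6 of 59 tested genes were higher in GMP and 7 in MEP, together 22.0%, where 26.6% of all genes were called in either direction. The median log2 ratio of GMP over MEP was 0.17 for escort and dissociation genes, -0.03 for exchange factors, 0.32 for GTPase-activating proteins, -0.24 for endosome effectors, -0.12 for late endosome effectors and 0.06 for secretion effectors, against -0.12 over all genes.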

How the data were processed

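For each gene and barcode the authors deposited raw UMI counts, for 5 samples of sorted mouse bone marrow cells, per the labels. Per the submitters' processing notes, the mm10 build was used together with Seurat 2.3.0, Cell Ranger 2.0.0 and CASAVA 1.8.2. How strand was used and how cells were filtered is not given in the sources used here. The 2 CMP samples were identical and used once, and they held 3738 of the 12185 CMP cells that the design text states; the others were not analysed here.

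The 10883 LSK barcodes with 2110 or more UMIs were taken as cells (10882 stated), and cells of all gates were kept if they had at least 500 genes and no more than 10% of UMIs from mitochondrial genes. Counts were summed per library and divided by its total (CPM); intervals at 95% are exact Poisson for levels, conditional binomial for ratios and Clopper-Pearson for shares, and cover counting error only. A count under 3 was set to 3 in ratios. No p-value was computed. The calculation was tested on simulated counts. For clusters, likely doublets were removed (0.8% per 1000 cells, by a simulated-pair score), and Leiden clustering (resolution 1) used 15 neighbours in 30 principal components of 2000 variable genes, with the Rab genes left out. A cluster was named from a marker class led by its genes, or left unnamed. Members with 10 CPM and a ratio of 2 are described in full, others by counts; of each list, genes past the rule in GMP over MEP and the 2 highest in CPM are named, except 1 gene not reported here. Rab17, Rab4b, Rab11b, Rab1a and the values within clusters of genes that did not pass the rule there were chosen after their values were seen. The Rab genes and all lists were chosen with earlier results of these data known. All 58 genes were matched in GENCODE M21 (GRCm38) for coordinates, and promoter windows are from RefSeq GRCm38.p6. Alternatives were median-of-ratios and TMM factors (edgeR 4.0.16 in R 4.3.3), other minimum levels and folds, cell filters and clusterings. Tools were Python 3.11.15 with numpy 2.4.6, scipy 1.17.1, pandas 2.3.3, scanpy 1.11.5, igraph 0.11.9, scikit-learn 1.9.0 and matplotlib 3.10.9.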

Additional observations from a re-analysis of the deposited data

Results flagged for a closer look

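Rab transcripts were also counted in LSK barcodes that were not taken as cells. In the 426145 LSK barcodes with fewer than 100 UMIs, which no comparison above used, the 58 Rab genes summed to 1946 CPM (1867 to 2028, from 2289 of 1176057 UMIs). Of the 58 genes, 42 had more than 3 UMIs, a count that is 2.55 CPM there. LSK cells had 2037 CPM. The origin of the transcripts in these low barcodes was not tested. Whether they add to the levels of cells or to the differences between gates was not tested either.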

How the results depend on the processing

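No paired analysis was possible because each gate had 1 library and the labels pair no samples, and for the same reason no replicate could be left out. With a minimum of 50 CPM in place of 10, the called Rab genes numbered 3 of 16 in GMP over MEP, 1 of 15 in GMP over CMP, 1 of 14 in MEP over CMP, 1 of 14 in CMP over LSK, 4 of 16 in GMP over LSK and 3 of 14 in MEP over LSK, against 10, 3, 10, 10, 10 and 11 at 10 CPM; of all genes, 24.3, 6.95, 21.8, 8.84, 20.8 and 29.9% were called. With no minimum they numbered 17, 9 and 19 of 53, then 21, 21 and 26 of 55, where 35.9, 22.9, 39.8, 30.7, 40.6 and 47.2% of all genes were called. At 1.5-fold, GMP over MEP had 16 of 31 and GMP over CMP 7 of 30, where 46.3 and 19.1% of all genes were called. CMP over LSK had 2 calls with median-of-ratios and 4 with TMM factors, where 11.2 and 11.1% of all genes were called. The 13 genes high in a cluster became 8 at 3-fold and 3 at 50 CPM, and 14 to 17 with other resolutions or with doublets kept. The share of all genes under these cluster settings was not computed. Of 1470 values of single genes, 368 moved by more than their counting interval. A change of direction was looked for only in genes called in the main setting, and none was found. Their ratios were at least 2, so the scaling shifts, at most 0.54 in log2, could not have reversed them. Leaving out the cells of clusters 15 to 18, an alternative chosen after seeing the data, kept the same 10 genes in GMP over MEP. Of all genes, 26.7% were then called. Depth limits the low genes most: CMP, with the fewest UMIs, allows up to 0.111 CPM where none was counted.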

Other observations

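Several Rab genes differed with the depth of a cell inside its gate, a split made after seeing the data. MEP cells with fewer than 4000 UMIs (313 cells) had Rab37 at 77.3 CPM, Rab38 at 109 and Rab44 at 8.9, against 12.5, 50.7 and 0.6 in the 5971 deeper ones. CMP cells below that depth (630) had Rab37 at 93.7 CPM and Rab4a at 23.0, against 29.8 and 4.3 in the 3083 deeper ones. GMP cells below it (508) had Rab37 at 23.0 CPM, against 4.9 in the 7519 deeper ones. The cells of clusters 15 and 16, where Rab37 was high, had medians of 3811 and 5908.5 UMIs.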
